A study of Mus musculus with 16 samples.

Results

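Lung group 2 innate lymphoid cells (ILC2s) taken 4 months after intranasal IL-33 were compared with lung ILC2s taken at week 2 of the same treatment, in C57BL/6J mice. The comparison rests on 5 of the 16 single-colour expression arrays of the series, 2 at 4 months and 3 at week 2, and covers all 22180 genes that had a probe set with 1 gene symbol. Naive lung ILC2s of untreated mice (2 arrays) and lung ILC2s at day 4 of IL-33 (3 arrays) are given as reference levels, and the remaining 6 arrays hold ILC2s of the mediastinal lymph node at day 4 and week 2. Each array is labelled as a biological replicate, while the age and number of the mice and the markers of the sort have no entry in the labels used. The question is how ILC2s long after an IL-33 exposure differ from those still near it.

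ILC2s are tissue-resident lymphocytes that carry no antigen receptor and answer tissue alarm signals such as IL-33, IL-25, IL-18 and TSLP by releasing type 2 cytokines, mainly IL-5 and IL-13. Their identity depends on the transcription factors GATA3 and RORα. After an IL-33 response in the lung most of the expanded cells are lost, and those that persist are known to answer a later stimulus more strongly, which is why they have been called memory-like.

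The 4-month arrays had a narrower range of signal. The interquartile range of log2 signal was 2.05 and 2.47 on the 4-month arrays, against 2.85 to 2.89 at week 2. The 4-month replicates correlated over all genes at r = 0.947, and the week 2 replicates at 0.984 to 0.986. In the values as deposited, dim genes lay higher and bright genes lower at 4 months: over 20 bins of 1109 genes each, ordered by level, the median difference between 4 months and week 2 was 0.18 in the dimmest bin, 0.30 in bin 5, -0.66 in bin 19 and -0.50 in the brightest. Each gene was therefore compared with genes of equal level, by subtracting from every array the median deviation of its bin. The level of a gene was its mean over 9 arrays outside the comparison (day 4 lung and both lymph node groups). These values are called level-matched below. In them the median over all genes was 0.01 with a median absolute deviation of 0.34, and the medians of the bins lay near 0.

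**Figure D1:**
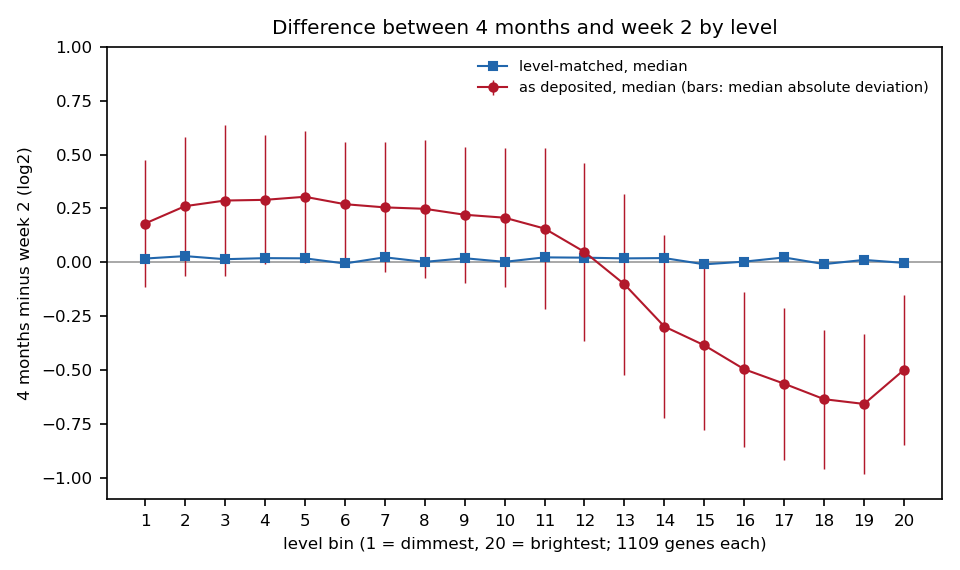
The median difference between 4 months and week 2 (log2, vertical axis) in 20 bins of 1109 genes ordered from dim to bright (horizontal axis), as deposited (red, bars show the median absolute deviation) and level-matched (blue). The deposited medians run from above 0 in the dim bins to -0.66 in bin 19, and the level-matched medians lie on the line at 0.

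With level matching, 453 genes differed between 4 months and week 2 at an adjusted p under 0.05 (limma, Benjamini-Hochberg over 22180 genes; 3638 genes had an unadjusted p under 0.05). Of these, 287 rose (1.29% of genes tested) and 166 fell (0.748%). As deposited, 3633 genes passed, 1076 higher (4.85%) and 2557 lower (11.5%). The share of lower genes was 70.4% as deposited, 84% with array medians centred, which moved the median of all genes to -0.10, 50.3% after quantile normalization and 36.6% with level matching. Both fits called 378 genes in the same direction, 214 higher and 164 lower, none was called in opposite directions, and 75 were called only after level matching. The groups did not overlap in level-matched values in all 453 called genes, as was so in 7890 of all genes (35.6%), and in deposited values they overlapped in 26 of the 453. The count rested on single arrays: it was 148 without week 2 replicate 3, 156 without week 2 replicate 2, 188 without week 2 replicate 1, 253 without 4-month replicate 1 and 826 without 4-month replicate 2. Of the called genes, 37 risen and 33 fallen ones were called in all 5 of these fits. With array weights, which give the 4-month arrays 0.57 each and the week 2 arrays 1.45 to 1.73, 178 of the 453 were called and no further gene. Per-array values below are deposited log2 signals, and each difference is the level-matched mean at 4 months minus that at week 2, with limma's SE. In bulk arrays fewer cells that express a gene and less RNA per cell cannot be told apart.

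Genes that ILC2s express were high on the arrays of both groups. Gata3, the factor that specifies ILC2s, read 9.36 and 9.60 at 4 months and 9.53 to 9.69 at week 2, and Il7r and Thy1, surface markers of innate lymphoid cells, were all above 10. The mean of 10 T cell marker genes was 5.18 to 5.36 on all 5 arrays. On the naive arrays, given as reference levels, it was higher, at 6.86 and 6.73, and the mean of 14 cytotoxic genes was 5.20 and 5.13. The part of such cells in the naive levels below was not tested. Markers of other cells varied between arrays. The mean of 14 monocyte and neutrophil markers was 5.25 and 5.18 at 4 months and 4.32, 4.11 and 5.04 at week 2, that of 16 macrophage markers 4.73 and 4.34 against 4.23, 4.02 and 5.51, that of 12 dendritic cell and MHC class II markers 5.29 and 4.93 against 4.54, 4.50 and 4.99, and that of 16 epithelial markers 4.12 and 4.09 against 5.04, 4.60 and 4.03. Week 2 replicate 3 thus stood apart from the other two in each of these. The neutrophil gene S100a8 read 9.25 and 9.39 at 4 months and 4.71, 4.77 and 7.93 at week 2 (difference 3.39 ± 1.33, limma adjusted p = 0.20). The club cell gene Scgb1a1 read 3.77 and 4.33 against 11.02, 10.17 and 6.31 (-4.74, adjusted p = 0.083 in limma). No marker of T cells, ILC3s, macrophages, monocytes and neutrophils, dendritic cells, mast cells and their relatives, epithelium or red blood cells and platelets on the lists used passed the test. Outside the lists, and chosen after their values were seen, Trav7-4, a T cell receptor alpha segment, and Trem1, a receptor of monocytes and neutrophils, rose. Trav7-4 read 7.14 and 6.86 at 4 months and 4.75, 5.87 and 5.06 at week 2 (1.89 ± 0.29, adjusted p = 0.0046 in limma), and its call held in all 5 fits that leave out an array. The Trem1 difference was 1.10 ± 0.25, with no overlap between the groups, and it lost its call without 4 of the 5. The part of such cells in the results below was not tested.

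Lilrb4a, an inhibitory receptor of the immunoglobulin family, Jag1, a ligand of Notch receptors, Itgae, the αE integrin CD103 that binds E-cadherin, and Tnfsf8, the ligand of CD30, were among the 12 largest falls. Each lay 1.97 to 2.65 lower on the level-matched log2 scale, and each was called in every one of the 18 alternative analyses. Lilrb4a read 5.94 and 6.28 at 4 months, against 9.31, 9.08 and 9.40 at week 2 (-2.65 ± 0.23, limma adjusted p = 2.67e-05). Both 4-month arrays also lay under the naive arrays, at 7.64 and 7.76, and under those of day 4, at 9.70, 9.62 and 8.98. Jag1 read 4.30 and 4.96 at 4 months and 7.79, 7.59 and 7.52 at week 2 (-2.38 ± 0.23, adjusted p = 0.000107 in limma). Week 2 held the highest Jag1 of the lung groups, with 5.54 and 5.29 in naive cells and 6.17, 6.47 and 6.99 at day 4. Itgae read 4.86 and 4.63 at 4 months and 7.48, 7.39 and 7.66 at week 2 (-2.27 ± 0.36, adjusted p = 0.00461 in limma). Its level was highest at day 4, at 9.30, 9.18 and 9.53, and the naive arrays, at 6.19 and 4.63, overlapped the 4-month ones. Tnfsf8 read 5.20 and 5.85 at 4 months and 8.03, 8.26 and 8.08 at week 2 (-1.97 ± 0.21, adjusted p = 0.00018 in limma). Day 4 was as high as week 2, at 8.05, 7.72 and 8.31, and the naive arrays read 4.33 and 5.04, below 4 months. Tnfsf8 was the fallen member of 26 costimulatory and inhibitory receptors and ligands, of which 1 rose and 24 did not pass (median -0.02). Itgae was that of 23 genes of residency, egress and adhesion, of which 1 rose and 21 did not pass (median 0.01). Among all genes 1.29% rose and 0.748% fell.

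Il18r1, the binding chain of the IL-18 receptor, was the sole called gene of 23 receptors of ILC2 activation (median 0.11). As deposited 7 of the 23 were called lower (median -0.43). Of all genes, 0.748% were called lower after level matching and 11.5% as deposited. Il18r1 read 6.66 and 6.75 at 4 months and 8.56, 8.44 and 8.66 at week 2 (-1.35 ± 0.26, limma adjusted p = 0.0161). The groups were well apart, and the naive arrays were at 7.62 and 6.36. Without week 2 replicate 3 the limma adjusted p was 0.063 and without 4-month replicate 2 it was 0.059, and it passed in the other 3 fits that leave out an array. Its partner chain Il18rap had a difference of -0.48 (adjusted p = 0.14 in limma). Rgs16, which ends signals of G protein-coupled receptors, read 4.87 and 6.69 at 4 months and 8.59, 8.40 and 8.28 at week 2 (-2.06 ± 0.44, adjusted p = 0.0247 in limma). Its 4-month arrays were far apart from each other, and the adjusted p was 0.22 without 4-month replicate 1 and 0.065 to 0.074 without a week 2 array.

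The genes described next also fell, and were chosen after their values were seen. Ecm1, a secreted matrix protein, read 6.54 and 6.70 at 4 months and 8.93, 8.65 and 8.81 at week 2 (-1.51 ± 0.22, limma adjusted p = 0.00344). Alcam, the adhesion molecule CD166, read 6.21 and 6.07 against 8.11, 7.90 and 8.10 (-1.27 ± 0.22). Nt5e, the ectoenzyme CD73 that makes adenosine from AMP, read 5.78 and 6.61 against 7.81, 7.72 and 7.98 (-1.14 ± 0.19). In these genes the week 2 arrays lay close together and above both 4-month arrays, as did the day 4 arrays of Ecm1 (8.67 to 8.75) and Nt5e (8.62 to 9.01). Nrp1, a co-receptor of semaphorins and VEGF, read 6.66 and 7.11 at 4 months and 8.43, 8.51 and 8.44 at week 2 (-0.90 ± 0.16). The calls of Ecm1, Alcam and Nrp1 held in all 5 fits that leave out an array, and Nt5e lost its call without 4-month replicate 1 (adjusted p = 0.0725 in limma).

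**Figure D2:**
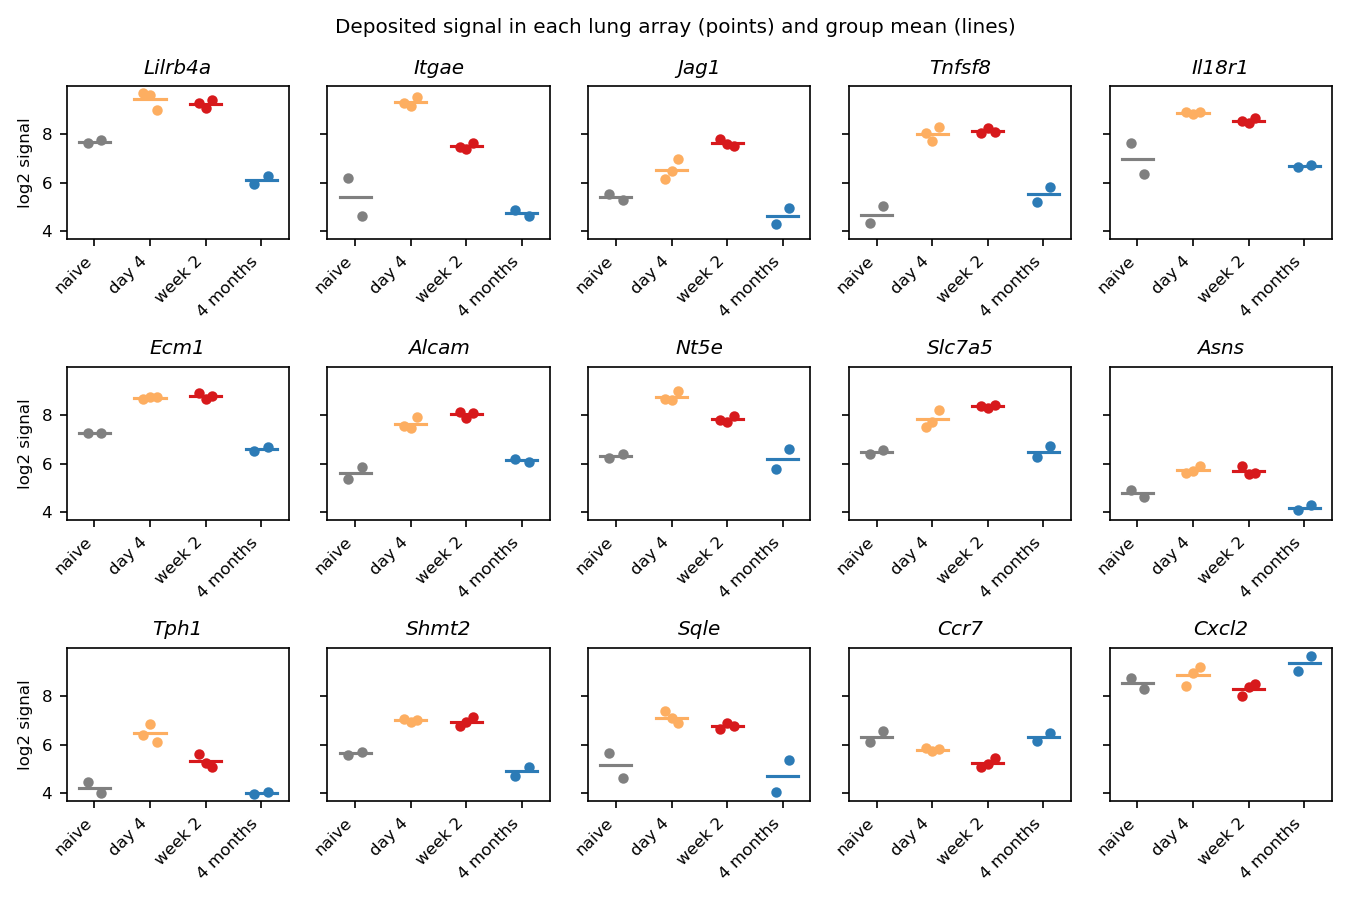
Deposited log2 signal (vertical axis, the same in every panel) of 15 genes in each array of the 4 lung groups (points) with the group mean (line). The first 13 panels hold genes that fell between week 2 and 4 months, such as Lilrb4a from 9.08 or more to 6.28 or less, and the last 2, Ccr7 and Cxcl2, hold genes that rose.

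Genes of amino acid supply and use fell in part. Of 16 genes of amino acid and arginine metabolism, 3 fell, 1 rose and 12 did not pass, with a list median of -0.15 beside 0.01 for all genes. Over all genes, 0.748% fell and 1.29% rose. Slc7a5, the transporter of large neutral amino acids, read 6.27 and 6.72 at 4 months and 8.40, 8.32 and 8.43 at week 2 (-1.22 ± 0.19, limma adjusted p = 0.00476). The 4-month arrays were at the naive level (6.39 and 6.57), and the day 4 arrays, at 7.54, 7.73 and 8.23, lay between. Asns, which makes asparagine, read 4.09 and 4.29 against 5.92, 5.58 and 5.63 (-1.20 ± 0.20, adjusted p = 0.00721 in limma). Tph1, the first enzyme of serotonin synthesis, read 3.96 and 4.07 against 5.60, 5.24 and 5.09 (-1.32 ± 0.24, adjusted p = 0.0101 in limma). Tph1 was highest at day 4 (6.40, 6.88 and 6.12) and as low in naive cells (4.47 and 3.99) as at 4 months, and its adjusted p without 4-month replicate 1 was 0.068. Slc7a8, a second transporter of neutral amino acids, was the member that rose after level matching (0.94 ± 0.21, adjusted p = 0.0319 in limma). Its deposited values overlapped, at 8.86 and 9.42 against 8.95, 8.84 and 8.81, and the call was lost whichever array was left out. Arg1, the arginase that ILC2s express, had a difference of 0.05 and Slc3a2, the partner chain of Slc7a5, one of 0.54, and neither passed.

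Further genes of one-carbon and tRNA metabolism, chosen after their values were seen, also fell. Shmt2, which feeds one-carbon units from serine in mitochondria, read 4.71 and 5.09 at 4 months and 6.77, 6.94 and 7.13 at week 2 (-1.42 ± 0.24, limma adjusted p = 0.0075). Xpot, which exports tRNA from the nucleus, read 4.35 and 4.31 against 5.91, 5.83 and 6.35 (-1.38 ± 0.21). The groups were apart by more than 1 log2 unit in both genes, and both calls held in all 5 fits that leave out an array. Of 15 cytosolic aminoacyl-tRNA synthetases, which load tRNAs, Yars (-0.92 ± 0.19, adjusted p = 0.0207 in limma) and Sars (-0.95 ± 0.22, adjusted p = 0.0373) fell and 13 did not pass. The share fallen was 13.3%, against 0.748% of all genes. The median of the 15 was -0.45, with Vars (0.36) and Kars (0.20) above 0. Sars lost its call whichever array was left out and Yars without 4 of the 5.

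Sqle, the squalene epoxidase of cholesterol synthesis, read 4.04 and 5.39 at 4 months and 6.65, 6.88 and 6.76 at week 2 (-1.46 ± 0.29, limma adjusted p = 0.0178). It was the sole called gene of the 15 on the list of cholesterol and fatty acid synthesis, where 0.748% of all genes fell. As deposited 7 of the 15 were called lower, against 11.5% of all genes. Next after Sqle in level-matched difference were Hmgcs1 at -0.77 (limma adjusted p = 0.079) and Srebf2 at -0.65, while Dhcr7 was at 0.62. The Sqle call was lost without 4-month replicate 1 (adjusted p = 0.17 in limma) and without week 2 replicates 2 (0.065) or 3 (0.059). Msmo1, a further enzyme of cholesterol synthesis that is not on the list and was chosen after its values were seen, fell by 1.11 on the log2 scale and lost its call whichever array was left out.

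None of the 24 listed genes of oxidative phosphorylation passed (median -0.08), where 1.29% of all genes rose and 0.748% fell. As deposited 9 of the 24 were called lower, against 11.5% of all genes. The following genes lie outside that list and were chosen after their values were seen. Tfam, which acts in mitochondrial DNA transcription, and Tfb1m, a mitochondrial rRNA methyltransferase, fell by 1.20 and 1.19 on the log2 scale. Both calls were lost whichever array was left out. Mterf1a, a mitochondrial transcription termination factor, fell by 1.41, and Rhot1, a GTPase of mitochondrial transport, by 1.02. Mterf1a lost its call without 4-month replicate 2 and Rhot1 without 4-month replicate 1. The mitochondrially encoded respiratory chain genes COX1 (0.69 ± 0.17) and ND5 (0.69 ± 0.16) and the nuclear gene Cox7a2l (0.87 ± 0.17) rose. As deposited these 3 did not pass (0.20, 0.19 and 0.21), and each lost its level-matched call without at least 3 of the 5 single arrays.

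Other large falls had no common role. Rabggtb, a subunit of the enzyme that attaches lipid anchors to Rab proteins, read 1.98 and 2.03 at 4 months and 4.45, 3.79 and 4.08 at week 2 (-2.13 ± 0.33, limma adjusted p = 0.00461). Eloc, the elongin C subunit of ubiquitin ligases, read 3.87 and 3.92 against 6.44, 6.39 and 6.21 (-1.87 ± 0.33, adjusted p = 0.00908 in limma). Both were far apart between the groups, and Rabggtb was as low in naive cells (1.90 and 2.36). Serpini1, the protease inhibitor neuroserpin, read 2.95 and 3.62 against 4.91, 4.49 and 4.93 (-1.70 ± 0.23, adjusted p = 0.00234 in limma). Day 4 was near week 2, at 4.73, 4.61 and 4.85. Tas2r135, a bitter taste receptor, fell by 1.80 on the log2 scale from 4.38 to 4.67 at week 2 to 3.46 and 2.56, while day 4 (2.40 to 3.09) and naive (3.33 and 3.20) were as low as 4 months. Polr2l, a shared RNA polymerase subunit (-1.80 ± 0.44), Klk1b27, a kallikrein (-1.77 ± 0.41), and Dcn, the matrix proteoglycan decorin of fibroblasts (-1.82 ± 0.40), were dim throughout, under 5 on every array of the comparison. Polr2l lost its call whichever array was left out, Klk1b27 without 3 and Dcn without 4 of the 5. Trib1, a pseudokinase, Adap1, a regulator of Arf GTPases, and Cry1, a repressor of the circadian clock, were chosen after their values were seen. They fell by 1.63, 1.39 and 1.03 on the log2 scale and kept their calls in all 5 fits that leave out an array.

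Ccr7, which guides lymphocytes into lymph vessels and nodes, read 6.17 and 6.48 at 4 months and 5.10, 5.19 and 5.44 at week 2 (1.46 ± 0.23, limma adjusted p = 0.00461). The naive arrays, at 6.11 and 6.55, were at the 4-month level, day 4 (5.85, 5.72 and 5.84) was between, and the call held in all 18 alternatives. It was the sole called gene of 18 chemokine receptors. Of 16 chemokines, 2 rose and 14 did not pass (median 0.32), where 1.29% of all genes rose, and with array weights none was called. Cxcl2, which attracts neutrophils, read 9.06 and 9.65 at 4 months and 8.03, 8.39 and 8.52 at week 2 (1.54 ± 0.32, adjusted p = 0.0226 in limma). The groups did not overlap, and the adjusted p was 0.062 to 0.076 without 4 of the 5 single arrays. Ccl5, which attracts T cells and eosinophils, had a mean of 8.83 ± 0.25 (SD, n = 2) with no array under 8.65, against 8.28, 8.40 and 8.31 at week 2 (0.99 ± 0.24, adjusted p = 0.0427 in limma), under its level in naive cells (9.85 and 10.10) and at day 4 (10.22, 9.98 and 9.81). The Ccl5 call held only without 4-month replicate 2, with an adjusted p of up to 0.32 without another array. Csf1, the growth factor of macrophages, was the sole called gene of the 19 on the cytokine list, at 6.88 and 7.20 against 6.37, 6.52 and 6.48 (0.96 ± 0.22, adjusted p = 0.0319 in limma). That call was lost whichever array was left out (adjusted p of 0.069 to 0.13). Il27 (1.17 ± 0.25) and Il12b (0.74 ± 0.15), cytokine genes outside the list and chosen after their values were seen, also rose. Il12b read 4.56 and 4.20 at 4 months and 3.28, 3.49 and 3.41 at week 2, and Il27 read 7.54 and 6.79 against 6.39, 6.64 and 6.71. Il27 lost its call without 4 of the 5 single arrays and Il12b without 3.

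Among 19 genes tied to T cell memory, Ccr7 and Cd27 rose and 17 did not pass, with a median of 0.32, where 1.29% of all genes rose. Cd27, a costimulatory receptor, had a level-matched difference of 0.93 ± 0.22 (limma adjusted p = 0.041), but its deposited values overlapped at 5.89 and 6.91 against 5.90, 5.87 and 6.42. Its call was lost without 4-month replicate 2 (adjusted p = 0.20 in limma) and without week 2 replicates 1 or 2. Klf3, a repressor related to Klf2, rose by 0.72 ± 0.17 (adjusted p = 0.0383 in limma) with deposited values of 7.60 and 8.06 against 7.74, 7.85 and 7.74, and lost the call whichever array was left out. Lef1 (0.33), Bach2 (0.39) and Tbx21 (0.28) of this list did not pass. Rnf144a, a ubiquitin ligase, and Dtx1, a Deltex ligase of the Notch pathway, were chosen after their values were seen. Rnf144a read 6.15 and 6.26 at 4 months and 5.32, 5.15 and 5.39 at week 2 (1.30 ± 0.19, adjusted p = 0.0032 in limma), and was called in all 18 alternatives. Dtx1 read 5.54 and 5.01 against 4.48, 4.40 and 4.62 (1.09 ± 0.20), and lost its call without 4-month replicate 1 (adjusted p = 0.10 in limma).

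None of the 25 genes of ILC2 function looked at irrespective of their test was called after level matching. Over all genes 1.29% rose and 0.748% fell, so the lack of a call among 25 does not show that they were unchanged. The main ILC2 cytokines Il13 and Il5 stood high in both groups. Il13 read 10.32 and 10.53 at 4 months and 11.01, 11.26 and 10.71 at week 2 (-0.07 ± 0.24, limma adjusted p = 0.93). Il5 read 7.93 and 8.41 against 8.45, 8.78 and 8.34 (0.14 ± 0.20, adjusted p = 0.79). The deposited Il13 values did not overlap and those of Il5 did, and relative to other bright genes both differences were within 1 SE of 0. The naive arrays read 10.71 and 10.06 for Il13 and 7.86 and 7.23 for Il5. Il4 (0.11), Il9 (-0.11), Il6 (0.05), Csf2 (0.17) and Il2 (0.52) did not pass either. Il4 read 4.42 and 4.75 at 4 months and 5.26, 5.01 and 5.02 at week 2, a deposited difference of -0.52 (limma adjusted p = 0.079). The bins of Il4 (level 6.86) and Il6 (7.64) were set by arrays in which they are brighter, so both were measured against brighter genes. Il2 (level 5.70) was measured against dimmer ones. Il6, a pleiotropic inflammatory cytokine, read 5.35 and 6.92 at 4 months and 6.53, 6.64 and 7.10 at week 2, with naive arrays at 3.39 and 3.22. Il2, the growth factor of T cells, read 8.22 and 8.05 against 7.99, 8.21 and 7.76, with naive arrays at 6.95 and 6.36. The 4-month and week 2 values of both cytokines overlapped, and both groups lay above the naive arrays.

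Of the transcription factors of ILC2 identity, 16 were measured and none passed (median 0.35, from -0.49 for Irf4 to 0.65 for Rora). As deposited their median was -0.17 and 3 were called lower, against 11.5% of all genes. After level matching 1.29% of all genes rose and 0.748% fell. Gata3 differed by 0.38 ± 0.21, Rora, which RORα is made from, by 0.65 ± 0.20 (limma adjusted p = 0.107), Bcl11b by 0.51 ± 0.19 and Id2 by 0.00 ± 0.16. The IL-2 receptor chain Il2ra (0.66, adjusted p = 0.086), the IL-7 receptor Il7r (0.30) and Icos (0.37) did not pass. Kit, the stem cell factor receptor, read 7.96 and 8.85 at 4 months and 9.76, 9.68 and 9.82 at week 2. Its level-matched difference was -0.68 ± 0.18 (limma adjusted p = 0.060), while as deposited it was -1.35 (adjusted p = 0.0018). The bin of Kit (level 8.02, bin 19) was set in part by lymph node arrays in which it is dimmer, with means of 7.17 and 7.43. Kit was thus measured against dimmer genes, and the deposited median was -0.66 in bin 19 and -0.50 in bin 20. Il17rb, the IL-25 receptor, read 8.48 and 8.76 against 9.60, 9.61 and 9.64, with a level-matched difference of -0.50 ± 0.17 (adjusted p = 0.14) and a deposited one of -0.99 (adjusted p = 0.0026). In both genes the groups were apart in deposited values, and a call depended on level matching. Cd69 (0.55) and S1pr1 (0.56), which act against and for exit from tissue, both had positive differences, and neither passed. Il1r2, the decoy receptor of IL-1, read 4.48 and 5.43 at 4 months, 5.72, 5.31 and 5.74 at week 2 and 9.22, 8.85 and 9.29 at day 4. Its bin of level was set by arrays in which it is bright, so its difference of 0.00 ± 0.34 was measured against brighter genes.

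**Figure D3:**
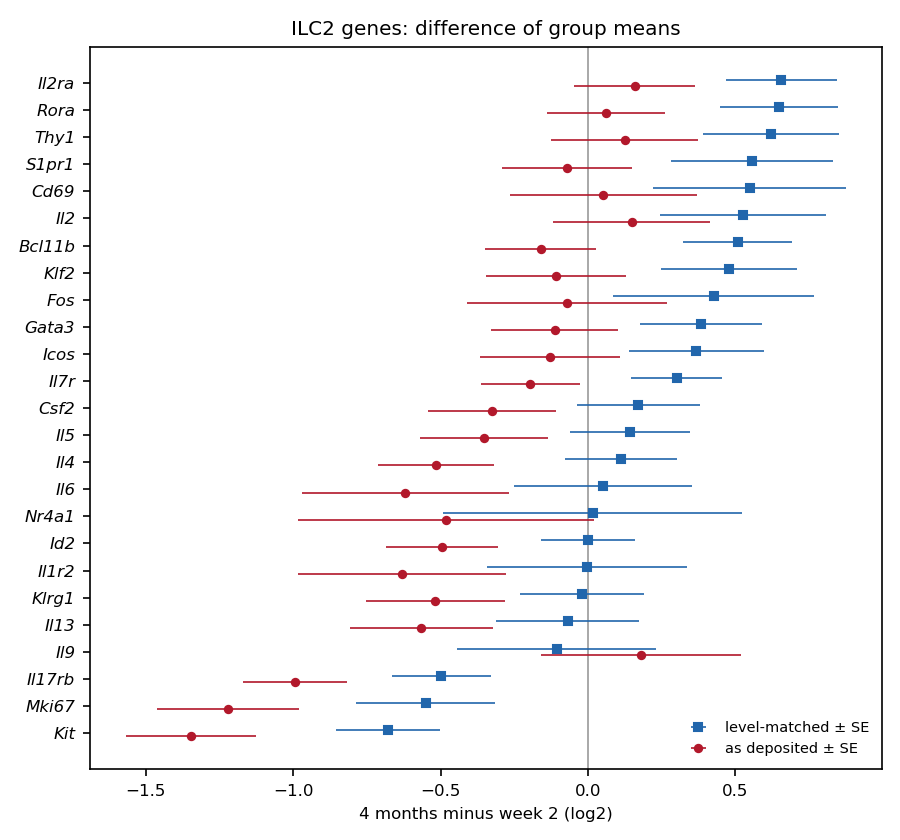
Difference between 4 months and week 2 (log2, horizontal axis) of 25 genes of ILC2 function, level-matched (blue squares) and as deposited (red circles), with bars of 1 SE from limma. Level-matched differences run from -0.68 for Kit to 0.66 for Il2ra, and all but that of Il9 lie to the right of the deposited ones.

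Cell division and the early response programme were compared as lists. Of 38 cell cycle genes, Top2a, the topoisomerase of dividing cells, fell and 37 did not pass (median 0.09). Among all genes 0.748% fell and 1.29% rose. Top2a read 3.24 and 4.47 at 4 months and 5.48, 5.91 and 5.45 at week 2 (-1.09 ± 0.25, limma adjusted p = 0.0359), far under day 4 (7.69, 7.42 and 7.32). It kept its call only without 4-month replicate 2, and its adjusted p without 4-month replicate 1 was 0.27. Mki67, a marker of cycling cells, read 4.30 and 4.78 against 5.90, 5.96 and 5.42, with a level-matched difference of -0.55 ± 0.24 (adjusted p = 0.25) and a deposited one of -1.22 (adjusted p = 0.00469). Its groups did not overlap. As for Il1r2, the bin of Mki67 was set by arrays in which it is brighter, at a level of 7.91, and with bins from the 5 compared arrays alone it was called lower (-0.95, adjusted p = 0.0289 in limma). With those bins the list's median was -0.23. As deposited the list had 5 genes called lower and a median of -0.20, where 11.5% of all genes were called lower. Plk1 (0.57), Ube2c (0.73) and Birc5 (0.50) had differences above 0 and did not pass. None of 23 early response factors passed, of which 20 had a level-matched difference above 0 with a median of 0.41, while as deposited the median was -0.10 and 2 were called lower. Fos was at 0.43, Egr3 at 1.10 (adjusted p = 0.17), Zfp36 at 0.95 (adjusted p = 0.10) and Nr4a1 at 0.02. None of 10 AP-1 and BATF partners, 16 NF-kB genes or 16 genes of cytokine and MAPK feedback passed.

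The remaining lists held no called gene: interferon-stimulated genes (21 genes, median 0.24), unfolded protein response (19, -0.06), heat shock proteins (13, -0.12), glycolysis and hypoxia (16, 0.04), lipid uptake and fatty acid oxidation (21, -0.24), cytosolic ribosomal proteins (17, 0.29), ribosome biogenesis (19, -0.19), proteasome (19, -0.11), Bcl2 family (13, 0.07) and eicosanoid synthesis (13, -0.13). Over all genes 1.29% rose and 0.748% fell after level matching. As deposited, 11 of the ribosome biogenesis genes and 9 of the proteasome genes were called lower. The deposited share was 11.5% over all genes and larger among bright ones, with 525 of 1109 genes called lower in bin 19. Hspa1a, an inducible chaperone, had the largest difference of these lists, at 3.47 and 4.58 at 4 months and 6.25, 6.06 and 6.99 at week 2 (-1.91 ± 0.54, limma adjusted p = 0.084). Its groups did not overlap, and the naive arrays read 8.05 and 5.99. Fatty acid oxidation genes such as Hadhb (-1.17, adjusted p = 0.11) and Acadl (-0.41) had differences below 0 in 17 of the 21 members of their list. Among marker lists, Cd79b (1.58 ± 0.27, adjusted p = 0.00798) and Ighm (0.96 ± 0.20, adjusted p = 0.0246) of 13 B cell genes and Cst7 (0.98 ± 0.21, adjusted p = 0.0246) of 14 cytotoxic genes rose, and Dcn and Cldn5 (-0.75 ± 0.16) of 14 endothelial and fibroblast genes fell. Among these the Cd79b call alone held in all 5 fits that leave out an array. As deposited Cst7 (0.31, adjusted p = 0.358) and Ighm (0.47, adjusted p = 0.13) did not pass. The mean of the 14 cytotoxic genes was 5.04 and 4.88 at 4 months and 4.59, 4.50 and 4.78 at week 2, and the part of such cells was not tested. The B cell genes Cd79a (-0.53), Pax5 (0.20) and Ms4a1 (0.51) did not pass, and the mean of the 13 was 4.63 and 4.40 at 4 months and 4.10 to 4.23 at week 2. The part of B cells in the 2 rises was not tested.

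**Figure D4:**
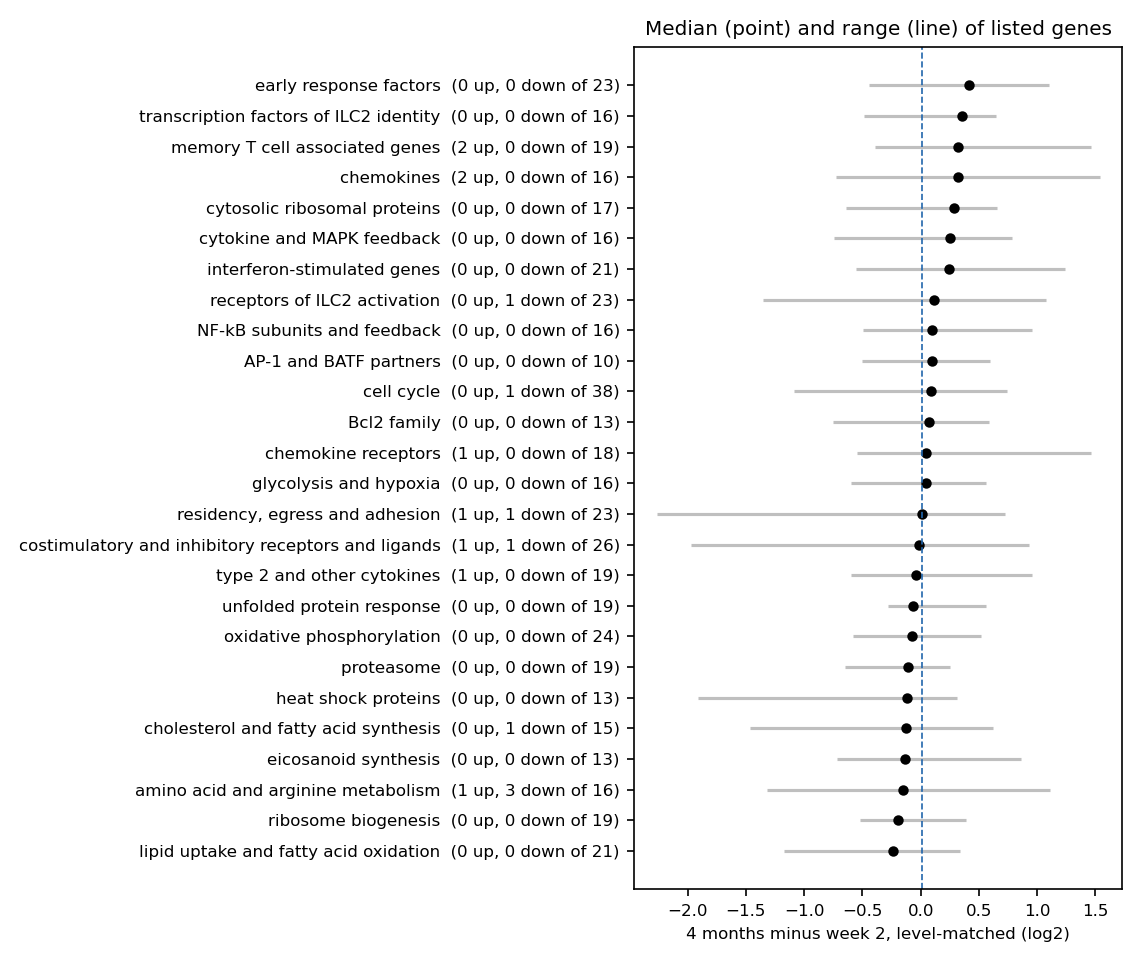
Median (point) and range (line) of the level-matched difference between 4 months and week 2 (log2, horizontal axis) for the genes of 26 functional lists, with the number called higher and lower of those measured beside each name. The dashed line marks the median of all genes, 0.01, and list medians run from -0.24 for lipid uptake and fatty acid oxidation to 0.41 for early response factors.

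Many of the largest rises were of genes that lymphocytes are not known to use. Among the 12 largest were 5 olfactory receptor genes (Olfr801, Olfr1170, Olfr68, Olfr787 and Olfr1392), Lce1g, a gene of the cornified skin envelope, and Btbd35f2. A naive array reached the 4-month range in Olfr1392 (3.94 and 2.37 in naive cells, 3.72 and 4.00 at 4 months). The same was so in Olfr801 (2.67 and 5.38, 5.12 and 6.29) and Btbd35f2 (9.29 and 8.60, 10.03 and 8.81). Naive arrays stayed below that range in Olfr1170, Olfr68 and Olfr787. Lce1g read 6.11 and 6.18 at 4 months and 2.65, 2.34 and 1.91 at week 2 (3.57 ± 0.31, limma adjusted p = 2.67e-05). Both 4-month arrays were far above all other lung arrays, of which the naive ones read 2.80 and 3.21. Olfr1170 read 4.86 and 5.15 against 1.87, 1.45 and 2.24 (2.99 ± 0.30, adjusted p = 0.000107 in limma). Olfr787 read 3.62 and 6.57 against 2.28, 1.76 and 2.65, so that its rise of 2.59 ± 0.62 rested on 4-month replicate 2, without which the adjusted p was 0.25. Lce1g, Olfr1170 and Olfr1392 were called in all 18 alternatives, while Olfr68 lost its call without 4 of the 5 single arrays. Pla2g10os, a transcript opposite the phospholipase gene Pla2g10, had the largest rise. It read 9.82 and 9.69 at 4 months and 6.79, 6.71 and 4.74 at week 2 (4.00 ± 0.69, adjusted p = 0.00798), with naive arrays nearly as high (9.10 and 8.87). Its adjusted p without 4-month replicate 1 was 0.057, and Pla2g10 itself did not pass (0.35 ± 0.31). Igkv5-43, an immunoglobulin kappa variable segment, read 8.94 and 9.02 against 6.31, 5.86 and 6.64 (3.21 ± 0.24, adjusted p = 9.44e-06), and lost its call when a gene's probe sets were averaged (adjusted p = 0.23).

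Families of genes grouped by symbol were formed after the called genes were seen, and are described without a test. Of all genes, 1.29% rose and 0.748% fell. Of 1105 olfactory receptor genes 45 rose and 2 fell (4.07% and 0.181%), of 289 vomeronasal receptor genes 7 rose (2.42%), of 478 microRNA genes 28 rose and 3 fell (5.86% and 0.628%), and of 81 late cornified envelope and keratin-associated genes 4 rose (4.94%). Together these families held 84 of the 287 risen genes (29.3%) and 5 of the 166 fallen ones. Most were dim: the median level of the olfactory receptor genes was 2.14. Without week 2 replicate 3 the risen genes were 11 olfactory receptor and 12 microRNA genes, and without 4-month replicate 2 they were 99 and 52. With array weights they were 17 and 19. Zinc finger genes named Zfp, with 3 risen and 3 fallen of 370, stood near the shares of all genes.

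**Figure D5:**
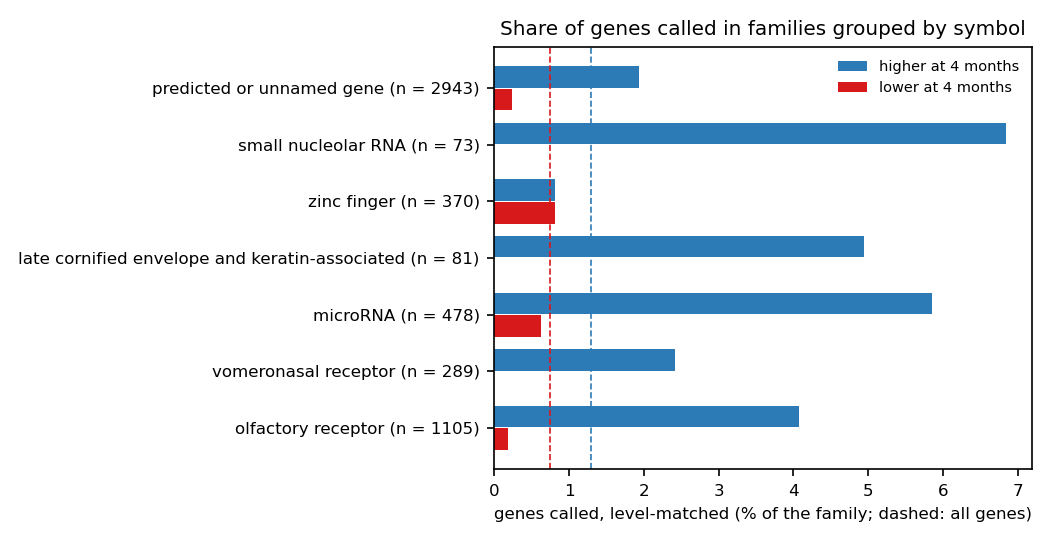
Share of genes called higher (blue) and lower (red) at 4 months, level-matched, in 7 families grouped by symbol (percent of the family, horizontal axis), with the shares over all genes, 1.29% and 0.748%, as dashed lines. The families shown have at least 73 genes measured, and smaller families with larger shares, such as the interferons at 27.8% of 18, are not drawn. MicroRNA genes have 5.86% and small nucleolar RNA genes 6.85% called higher.

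MicroRNAs are short RNAs that are cut from longer precursors and silence messenger RNAs through a seed, bases 2 to 8 of the mature form. The probe sets are assigned to the microRNA gene, and the array cannot tell the precursor from the mature form. Of the 31 called microRNA genes, 26 had a mature sequence in the RefSeq table (GRCm38.p6), with 41 mature forms, and 5 had no entry (Mir467e, Mir467c, Mir466h, Mir5099 and Mir874). The 6 genes whose calls held in all 5 fits that leave out an array are shown first with every mature form listed, 5′ to 3′ and with the seed in capitals.
miR-680 of Mir680-2, chrX:144297790-144297810, + strand: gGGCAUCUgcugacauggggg
miR-148a-3p, chr6:51269829-51269850, - strand: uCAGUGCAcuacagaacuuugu
miR-148a-5p, chr6:51269867-51269888, - strand: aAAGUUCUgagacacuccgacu
miR-339-5p, chr5:139369708-139369730, - strand: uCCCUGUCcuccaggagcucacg
miR-339-3p, chr5:139369673-139369695, - strand: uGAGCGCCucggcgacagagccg
miR-741-3p, chrX:66796809-66796831, - strand: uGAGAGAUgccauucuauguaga
miR-741-5p, chrX:66796847-66796869, - strand: uACGUAGAuugguaccuaucaug
miR-28b, chr8:73016523-73016543, + strand: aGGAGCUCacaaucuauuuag
miR-687, chr14:73206808-73206829, - strand: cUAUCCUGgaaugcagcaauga
No 2 of these genes share a seed, and miR-687 alone of them comes from a gene that fell.

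Mir680-2 was the brightest of the 6 genes, at 11.04 and 10.73 at 4 months and 9.44, 8.71 and 8.58 at week 2 (2.47 ± 0.25, limma adjusted p = 0.000108). Naive arrays, at 10.38 and 10.30, were near the 4-month ones, and day 4, at 8.16 to 8.27, was lower than both. Mir680-1, which lies at chr6:129691541-129691561 and encodes the same mature miR-680, rose as well, from 6.72, 6.44 and 4.94 to 8.62 and 8.41 (2.60 ± 0.47, adjusted p = 0.0101 in limma). The third copy, Mir680-3, did not pass (0.51, adjusted p = 0.34), and near-identical copies may share probe signal. Mir339 read 9.51 and 9.14 against 8.24, 7.87 and 8.07 (1.93 ± 0.24, adjusted p = 0.000823 in limma). Mir148a read 3.24 and 3.49 against 1.67, 1.31 and 1.49 (1.71 ± 0.20, adjusted p = 0.000503 in limma). Both Mir148a groups were dim, yet apart by more than their spread. Mir148b (-0.03) and Mir152 (0.52), whose 3p forms share the seed of miR-148a-3p, did not pass. Mir741 rose by 1.90 ± 0.26 and Mir28b by 1.40 ± 0.23. Mir687 read 4.45 and 4.43 at 4 months and 6.33, 6.04 and 6.42 at week 2 (-1.45 ± 0.24, adjusted p = 0.00768 in limma), with naive arrays at 3.71 and 4.33. It lies within the retinoblastoma gene Rb1, which did not pass (0.08 ± 0.17).

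Further called microRNAs are shown next, 5′ to 3′ and with their seeds in capitals, chosen after their values were seen.
miR-146a-5p, chr11:43374435-43374456, - strand: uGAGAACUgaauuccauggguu
miR-222-3p, chrX:19146901-19146923, - strand: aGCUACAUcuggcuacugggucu
miR-210-3p, chr7:141221407-141221428, - strand: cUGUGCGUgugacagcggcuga
miR-3109-5p, chr9:69456958-69456981, + strand: aAUGGAUGcgaugguucccaugcu
miR-1960, chr5:30170751-30170772, + strand: cCAGUGCUguuagaagagggcu
Mir146, the gene of miR-146a, a brake on NF-kB signals, read 4.13 and 5.66 at 4 months and 2.54, 2.03 and 2.02 at week 2 (2.43 ± 0.45, limma adjusted p = 0.0134). The naive arrays, at 1.51 and 1.85, and day 4, at 2.08 to 2.38, were as low as week 2, and the adjusted p was 0.082 without 4-month replicate 2. Mir146b, with the same seed, did not pass (0.22). Mir210, known as a hypoxia-induced microRNA, read 6.68 and 6.33 against 5.42, 5.28 and 5.36 (1.47 ± 0.29, adjusted p = 0.0189 in limma), and its adjusted p without 4-month replicate 1 was 0.14. Mir222 read 3.58 and 4.55 against 2.52, 2.04 and 2.95 (1.29 ± 0.31, adjusted p = 0.0438 in limma), and 0.26 was its adjusted p without 4-month replicate 2. Mir221 (-0.44), which shares the seed of Mir222, did not pass. Mir3109 fell by 1.66 on the log2 scale and lies within Anxa2, the gene of annexin A2. Anxa2 was itself called lower (-0.92 ± 0.22, adjusted p = 0.0383 in limma), at 6.58 and 7.11 against 8.12, 8.39 and 8.27. Mir1960 fell by 1.11 on the log2 scale and lies within Hadhb, which did not pass. The calls of Mir3109, Mir1960 and Anxa2 were lost whichever array was left out. Of the risen microRNA genes, 10 lie inside a measured host gene, and none of those hosts was called.

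The called genes as sets stood as follows in the lung groups. The median over the 287 risen genes of level-matched group means was 5.59 in naive cells, 5.06 at day 4, 5.05 at week 2 and 6.22 at 4 months. For the 166 fallen genes it was 4.98 in naive cells, 5.66 at day 4, 5.64 at week 2 and 4.57 at 4 months. The last 2 values of each set follow from how the sets were chosen, and the naive arrays share the narrow range of the 4-month arrays (interquartile range 2.39 and 2.45). The median size of change was 1.14 for risen and -1.02 for fallen genes.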

How the data were processed

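Total RNA of isolated ILC2s was extracted with Trizol and labelled with a Nugen Encore biotin kit, per the labels' protocols. The deposited values are log2 signals that the authors made by RMA in Affymetrix Expression Console, per the submitters' processing notes, with tool versions, genome build and sort markers not given in the sources used here. RMA includes quantile normalization over arrays, so differences in total RNA are not visible. No scanner files were used, so detection was not assessed, and the number of arrays limits the precision.

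Of 41345 probe sets, 23521 had 1 gene symbol, 1814 several and 16010 none. The probe set with the highest mean was kept for the 1082 genes with more than 1, leaving 22180 genes, of which 21994 matched the RefSeq gene table by Entrez identifier. Genes without such a probe set were not analysed here. Per array, the median of value minus level was subtracted within 20 bins of equal gene number. Group means of all 16 arrays in 6 groups were fitted with limma 3.58.1 in R 4.3.3, sharing 1 spread (10 residual and 5.97 prior degrees of freedom), with Benjamini-Hochberg adjustment over all genes and a threshold of 0.05, two-sided. Level matching measures each gene against others of its level, so a change shared by all genes of a level is not visible. The procedure was run on simulated data in which each gene had 1 level in all groups, apart from changes added at 4 months. Such data cannot show the effect of a bin set by arrays in which a gene is brighter or dimmer. Figures were drawn with matplotlib 3.10.9.

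The members, gene lists (26 functional, 11 of cell type markers) and rules were chosen with earlier results of these data known. The rule for named genes took, among genes called in both fits with groups that do not overlap and leaving out predicted genes, the 12 largest rises and 12 largest falls, up to 4 called members of each list, a fixed set of ILC2 genes whether called or not, and microRNA genes called in both fits. Others are named as chosen after their values were seen. The promoter of Csf1, the one called gene of the lists for which promoters were foreseen, is not printed since no measurement here bears on it. Alternatives were array weights, centred medians, quantile normalization, leaving out dim genes, trend and robust fits, a fit of the 5 arrays, mean probe sets, replicate number as a block, a minimum log2 change of 1, other bins or levels, and leaving out each array. The replicate numbers did not pair the samples.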

Additional observations from a re-analysis of the deposited data

How the results depend on the processing

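No gene called after level matching changed its sign in any of the 18 alternatives, and 15 risen and 14 fallen genes were called in every one. That signs held was fixed in advance with array weights and in fits that leave out 1 array, since the groups of the called genes do not overlap. Several other alternatives reuse the same differences. The number called was 453 (287 higher, 166 lower) after level matching and 3633 as deposited. It became 178 (117 and 61) with array weights, as deposited 1196. It became 1106 (654 and 452) with quantile normalization, as deposited 1214. It became 50 (26 and 24) in a fit of the 5 arrays alone, as deposited 1721. It became 273 (182 and 91) with a log2 change of at least 1, as deposited 1106. With the level taken from the compared arrays it was 843 (467 and 376). Leaving out 1 array gave 148 to 826 genes (90 to 593 higher, 57 to 233 lower), as deposited 793 to 5588: the highest counts came without 4-month replicate 2, and the lowest without week 2 replicate 3 or 2 after level matching and without 4-month replicate 1 as deposited. Without a 4-month replicate, the lone array is assumed to vary like the other groups. As deposited the counts were 2126, 1933 and 1997 without week 2 replicates 1, 2 and 3.

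With the replicate number as a block, 334 genes were called (209 higher, 125 lower), 3298 as deposited. Same-numbered samples did not deviate together (r = 0.05 and 0.01 for numbers 1 and 2), so the numbers are taken as names and not as pairing. The remaining alternatives gave counts within 1.5 times, from 431 with a smooth curve to 516 with trend and robust fits. Over the 90 named genes and the 18 alternatives, 1363 results kept their side of the threshold, 234 lost the call and 16 gained one. A turned sign in a gene called in neither fit was counted as kept, and named genes left out as dim gave no result there. All 666 list medians moved by less than the SD of the differences within their list. This bar is wide and does not show that medians kept their sign. The cell cycle median turned its sign with the level taken from the compared arrays. The cause of these shifts was not tested.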

Other observations

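Type I and III interferon genes, which encode the antiviral cytokines, were a small family with several rises, seen after the called genes were known. Of 18 measured, 5 rose and none fell (27.8%, against 1.29% of all genes). The median level-matched difference of the 18 was 0.81. Ifna9 read 4.60 and 6.06 at 4 months and 1.72, 1.28 and 1.44 at week 2 (3.62 ± 0.42, limma adjusted p = 0.000503), and was called in all 18 alternatives. Ifna1 (1.14), Ifna14 (1.19), Ifnl2 (1.17) and Ifne (1.22) rose less, and each lost its call without at least 3 of the 5 single arrays, week 2 replicate 2 and 4-month replicate 1 among them. Without week 2 replicate 2 the count of risen interferon genes was 1, and without 4-month replicate 2 it was 7. As deposited Ifnl2 did not pass (limma adjusted p = 0.0764). Ifnk (-0.96, limma adjusted p = 0.067) and Ifnb1 (-0.32) were among the members with a difference below 0. Among 21 interferon-stimulated genes, which respond to these cytokines, none of the list passed (median 0.24). As deposited the median was -0.03 and 3 were called lower, against 11.5% of all genes. Level-matched, Isg15 was at 1.24 (limma adjusted p = 0.091), Ifit3 at 1.23 (adjusted p = 0.11), Mx1 at 0.35 and Ifit2 at -0.56. Outside the list, and chosen after their values were seen, Ifit3b rose (1.26 ± 0.27) and Apol9b fell (-1.41 ± 0.28), the first losing its call whichever array was left out and the second without week 2 replicate 1 or 4-month replicate 1.

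Small nucleolar RNAs, which guide the modification of ribosomal RNA, had 5 rises among 73 genes (6.85%, against 1.29% of all genes). The count was 1 without week 2 replicate 3, 2 without week 2 replicate 1 and 2 with array weights. Snord8 read 8.55 and 8.63 at 4 months and 7.90, 7.73 and 7.79 at week 2 (1.45 ± 0.22, limma adjusted p = 0.00453), and was called in all 18 alternatives. The direction of the family depended on the scaling: as deposited 3 were higher and 4 lower with a median of -0.16, and after quantile normalization 3 and 2. Of all genes, 4.85% were called higher and 11.5% lower as deposited. A run of 10 measured microRNA genes lies on chromosome 12, from Mir673 to Mir370 (hairpins less than 50 kb apart). It held 3 risen genes, Mir665, Mir3070a and Mir341, and 9 with a difference above 0 (median 0.82). Of the measured microRNA genes 5.86% rose, and of all genes 1.29%. Mir665 and Mir3070a lost their calls without 4 of the 5 single arrays and Mir341 without 3, and Mir665 was not called as deposited (adjusted p = 0.0855 in limma). The next run on that chromosome, 31 genes from Mir882 to Mir409, held 2 risen genes, Mir329 and Mir495, with a median of 0.05. Mir329 read 8.15 and 6.06 at 4 months and 5.46 to 5.81 at week 2, and its adjusted p without 4-month replicate 1 was 0.36 in limma.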
